A study of Mus musculus with 12 samples.

Results

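The 10 genes described here are the apolipoprotein genes Apoa1, Apoa2, Apoa4, Apoa5, Apob, Apoc1, Apoc2, Apoc3, Apoe and Apom. They were picked by symbol, not by any measured value, from the 41128 genes of a mouse RNA-seq count table. All 10 passed the low-count filter in both fits. The 12 libraries form 5 groups. Of the 6 hepatocyte libraries, 3 are from untreated mice and 3, labelled peritumoral, from tissue beside liver tumours. All 6 carry the genotype Lats1tm1.1Jfm/RjoJ; Lats2tm1.1Jfm/RjoJ, a floxed line titled wild type, and the sources used here do not say whether Cre was present. Tumours followed hydrodynamic injection, at 8 weeks of age, of 1 µg SB11 (a transposase), 20 µg myc-NICD (active Notch) and 4 µg myr-HA-Akt (active Akt), and grew for 8 weeks. The label gives 8 weeks as the age of every mouse, which for the tumour-bearing mice may be the age at injection. In that case they were older at harvest than the untreated mice. Peritumoral and untreated hepatocytes thus differ in injection, and may differ in age, as well as in tumours. These cannot be told apart here. The 6 liver libraries are from 8-week CD-1 IGS mice: 2 controls, 2 taken 24 h and 2 taken 48 h after a single intraperitoneal dose of thioacetamide (TAA), a liver toxin activated inside hepatocytes. The labels describe these 6 as Percoll-selected hepatocytes too, but the series design speaks of livers. They are called livers here, a name that rests on the series design alone. No label says that libraries of a group are separate animals, so p-values measure the spread between libraries, which may be technical.

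Apolipoproteins are the protein part of the particles that carry fat and cholesterol in blood, and the liver makes most of them. Apob is the scaffold of very-low-density lipoprotein, the particle in which hepatocytes export triglyceride, and Apoa1 and Apoa2 are the main proteins of high-density lipoprotein. The smaller exchangeable proteins steer what happens to a particle: Apoc2 activates lipoprotein lipase, Apoc1 and Apoc3 slow lipolysis or uptake, Apoa5 promotes lipolysis, and Apoe is the ligand for uptake by receptors.

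Of the 10 genes, 7 lie in 2 clusters of the GRCm38 genome, and all are protein-coding. On chromosome 9, Apoa1 (46228580 to 46230466, plus strand), Apoc3 (46232933 to 46235636, minus), Apoa4 (46240696 to 46243459, plus) and Apoa5 (46268633 to 46271919, plus) span 43.3 kb. On chromosome 7, Apoc2 (19671579 to 19677941), Apoc1 (19689481 to 19692660) and Apoe (19696109 to 19699188), all on the minus strand, span 27.6 kb. Apoa2 lies alone on chromosome 1 (171225054 to 171226379, plus), Apob on chromosome 12 (7977648 to 8016835, plus) and Apom on chromosome 17 (35128997 to 35132050, minus).

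RefSeq promoter windows (GRCm38.p6, 250 bases before to 50 after a transcript start) were found for 8 of the 10 genes, all but Apoc1 and Apoc3. The stretches below are the 120 bases just upstream of 5 of the genes, read 5′ to 3′ along the gene. Apoc2 and Apoe are shown because they are cluster neighbours that moved in opposite directions after TAA, Apoa2 because it fell most, and Apoa5 and Apob because they hold a TATAAA match, the only part in capitals.
Apoc2 (chr7:19677942-19678061, minus strand): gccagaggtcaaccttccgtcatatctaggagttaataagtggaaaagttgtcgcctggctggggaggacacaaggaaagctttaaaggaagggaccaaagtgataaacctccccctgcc
Apoe (chr7:19699189-19699308, minus strand): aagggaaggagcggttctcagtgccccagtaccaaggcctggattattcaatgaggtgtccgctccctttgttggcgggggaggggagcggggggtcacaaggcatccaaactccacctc
Apoa2 (chr1:171224934-171225053, plus strand): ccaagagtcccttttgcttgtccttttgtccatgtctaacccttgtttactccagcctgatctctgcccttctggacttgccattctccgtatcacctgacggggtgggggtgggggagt
Apoa5 (chr9:46268513-46268632, plus strand): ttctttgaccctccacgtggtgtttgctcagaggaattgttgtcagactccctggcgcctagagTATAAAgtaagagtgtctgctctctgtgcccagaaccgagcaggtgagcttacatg
Apob (chr12:7977528-7977647, plus strand): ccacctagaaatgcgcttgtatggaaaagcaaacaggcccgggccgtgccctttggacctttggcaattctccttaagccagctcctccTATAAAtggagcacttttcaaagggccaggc
Each 300-base window was searched on both strands for TATAAA and for CAAAGTNCA (an HNF4-type motif). In the windows nearest the annotated start no match overlapped another, and TATAAA occurred in 3 of 8 genes, at position -56 from the RefSeq start in Apoa5, -60 in Apob and -212 in Apoa2, against 13.6% of all 32851 windows. The HNF4-type motif occurred in 1 of 8, as CAAAGTTCA at chr9:46240662-46240670 upstream of Apoa4, against 1.41% of all windows. A match is a string of letters in a window, and its absence says nothing about a factor.

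Library totals ran from 9640845 to 18522324 counts. The 9 hepatocyte markers, among them Alb and Ttr, summed to between 81689 and 190598 RPM (reads scaled to the library's total) in every library. They summed to 187551 to 190598 RPM in control livers, 152918 to 163166 at 24 h and 131059 to 137161 at 48 h. Untreated hepatocytes held 105010 to 106530 RPM, and peritumoral replicates 1, 2 and 3 held 117925, 81689 and 148729. Markers of other cell types also differed between the groups. The 14 macrophage markers summed to 65.5 to 146 RPM in control livers, 406 to 544 at 24 h, 1167 to 1780 at 48 h, 255 to 425 in untreated and 1589 to 4418 in peritumoral hepatocytes. The 10 stellate and matrix markers summed to 97.5 to 164, 575 to 646, 1559 to 2113, 67.4 to 159 and 929 to 2512 RPM in the same order, and the 10 endothelial markers to 161 to 199.9, 466 to 608, 595 to 764, 211 to 370.1 and 1190 to 1861 RPM. All 8 neutrophil markers were at 0 in control livers; their sum reached 6.31 RPM at 24 h, 5.19 at 48 h, 3.32 in untreated and 39.4 in peritumoral hepatocytes. The 9 biliary markers summed to 52.2 to 73.8 RPM in untreated hepatocytes and to 782 to 10413 in peritumoral ones; they ran from 72.2 to 82.7 RPM in controls, 169 to 179.7 at 24 h and 237 to 328 at 48 h. Peritumoral replicate 2 stood apart, with the 10413 RPM of biliary markers and 527 RPM of Xist, while Xist did not exceed 0.183 RPM in any other hepatocyte library and ran from 196 to 456 RPM in the 6 livers. Xist bears on the sex of the mice, which was not tested. Sex may thus differ within the peritumoral group and between hepatocytes and livers. Control livers held more hepatocyte marker RPM than untreated hepatocytes and less of the macrophage and endothelial markers. Their stellate and matrix markers overlapped. Between these groups the markers do not show the livers to be whole tissue. In bulk RNA, fewer cells of a type and less RNA per cell cannot be told apart.

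Levels below are CPM, counts scaled to library size and then by TMM, a method that sets the bulk of genes equal between libraries, and n is 3 libraries a group in hepatocytes and 2 in livers. Changes are log2 fold changes ± SE with adjusted p from edgeR's quasi-likelihood test (Benjamini-Hochberg over all genes tested), and a gene passed at an adjusted p under 0.05. Scaling bears on the liver comparisons: with library totals alone, the median of all tested genes moved from -0.02, 0.02, -0.03 and 0.01 to 0.23, 0.53, 0.68 and 0.21 (peritumoral, 24 h, 48 h, and 48 h against 24 h). The share of called genes that were higher moved from 65.1%, 51.0%, 51.1% and 67.7% to 92.7%, 83.3%, 88.8% and 87.6%.

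After TAA most of the apolipoprotein genes fell, while Apoc2 and, by 48 h, Apoa4 rose. At 24 h against control livers, 1 of 10 was higher (Apoc2), 6 were lower (Apoa2, Apoa5, Apoc1, Apoc3, Apoe and Apom) and 3 did not pass, where 21.3% of the 13497 genes tested were higher and 20.5% lower. At 48 h, 2 were higher (Apoc2 and Apoa4), 6 were lower (the same 6 genes) and 2 did not pass, against 25.0% higher and 23.9% lower of all genes. The median of the 10 was -0.90 at 24 h and -1.14 at 48 h, against 0.02 and -0.03 over all genes. With library totals alone, 4 were lower at 24 h and 5 at 48 h, 2 were higher at each time, and Apoa5 at 48 h turned to 0.06 (adjusted p = 0.765). In 1 fit of all 12 libraries, 0 were lower at 24 h and 3 (Apoa2, Apoc1 and Apom) at 48 h. Both comparisons use the same 2 control libraries. For the 9 hepatocyte markers, 0 were higher and 4 lower at each time, with medians of -0.97 and -0.89.

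**Figure D1:**
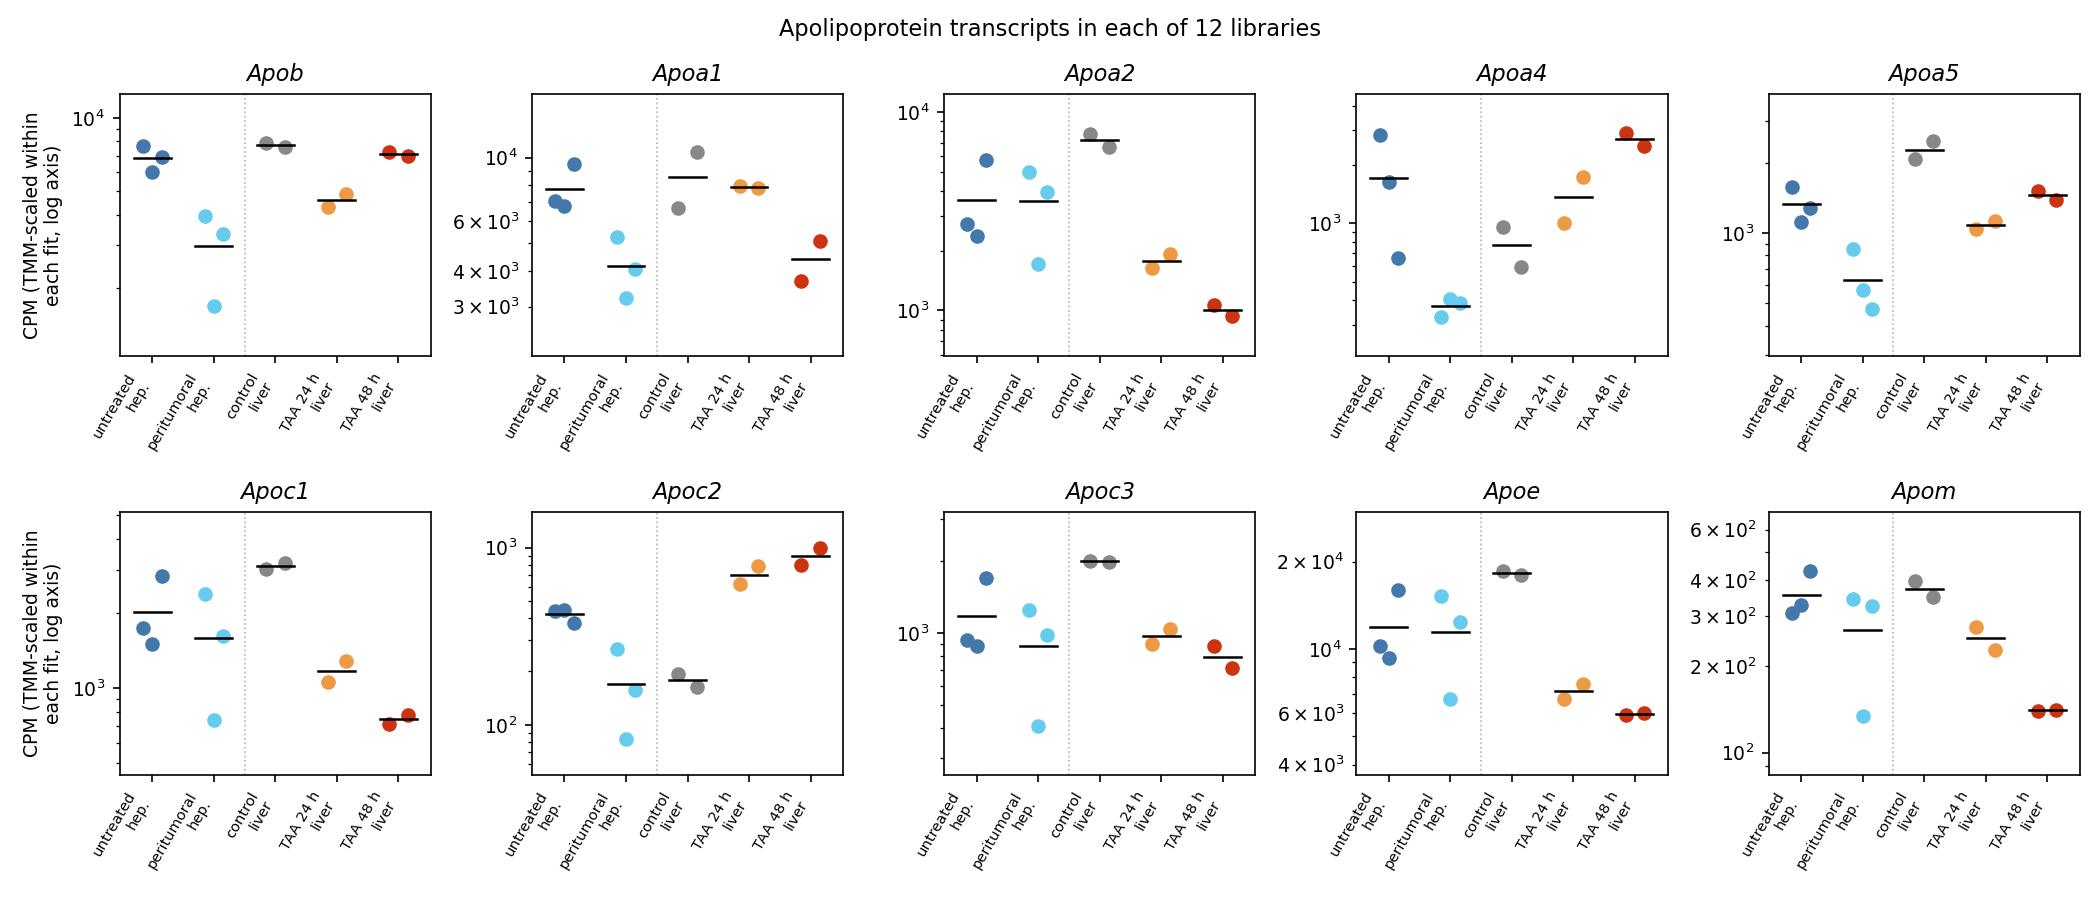
CPM (TMM-scaled within the hepatocyte and within the liver libraries, log axis) of the 10 apolipoprotein genes; each point is 1 library, each black line the mean of its group, and the dotted line parts the hepatocyte from the liver fit. Apoc2 stands above both control livers in all 4 TAA libraries, and Apoa2, Apoc1 and Apoe stand below them.

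Apoc2, the activator of lipoprotein lipase, had the largest rise among the 10 genes. It stood at 193 and 164 CPM in the control livers, 621 and 786 at 24 h, and 797 and 992 at 48 h. All 4 TAA libraries lay above both controls. The change was 1.98 ± 0.19 at 24 h (3.95-fold, adjusted p = 0.000841) and 2.33 ± 0.20 at 48 h (5.02-fold, adjusted p = 0.000366). Between 24 h and 48 h it was 0.35 ± 0.19 and did not pass (adjusted p = 0.288). The call at each time was kept in all 17 alternative settings, over which the change ran from 1.79 to 2.49 at 24 h and from 2.16 to 3.03 at 48 h. Exons of Apoc2 share 79.5% of their length with Gm44805, a protein-coding model on the same strand that has no row in the count table, and the sources used here do not give how such reads were assigned.

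Its cluster neighbours went the other way. Apoc1, an inhibitor of lipoprotein uptake and of lipid exchange in plasma, stood at 3013 and 3200 CPM in controls, 1059 and 1281 at 24 h, and 715 and 779 at 48 h. It fell by 1.41 ± 0.19 at 24 h (adjusted p = 0.0021) and by 2.06 ± 0.19 at 48 h (4.16-fold, adjusted p = 0.000459). Apoe stood at 18523 and 17982 CPM in controls, 6719 and 7599 at 24 h, and 5902 and 6005 at 48 h. All 4 TAA libraries of both genes lay below both controls. Apoe fell by 1.35 ± 0.35 at 24 h (adjusted p = 0.0221) and by 1.62 ± 0.35 at 48 h (3.07-fold, adjusted p = 0.0094). The Apoe call at 24 h was lost without 24 h replicate 1, control replicate 1 or control replicate 2 (adjusted p = 0.0681 to 0.08) and with library totals alone (-0.84, adjusted p = 0.054), and that at 48 h without 48 h replicate 1 (adjusted p = 0.0568). Both Apoe calls were also lost with limma on log2(RPM + 0.5) and log2(RPM + 0.1), at adjusted p = 0.125 and 0.083 for 24 h and 0.0887 and 0.0568 for 48 h, and in the 12-library fit (adjusted p = 0.349 and 0.231). Apoc4, another apolipoprotein gene of this cluster that is not among the 10, also fell, from 257 and 246 CPM to 91.2 and 91.5 at 24 h (-1.46 ± 0.14, adjusted p = 0.00078) and 75.1 and 59.4 at 48 h (-1.90 ± 0.14, adjusted p = 0.000293).

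Ratios of counts within a library need no scaling between libraries, and they bear on genes of 1 cluster that moved apart. Reads of Apoc2 per read of Apoc1 were 0.0640 and 0.0512 in controls, 0.586 and 0.614 at 24 h, and 1.11 and 1.27 at 48 h. The group means were 0.0576 ± 0.0091, 0.600 ± 0.020 and 1.19 ± 0.11 (SD, n = 2). Apoc1 per read of Apoe, by contrast, stayed between 0.121 and 0.178 across the 6 liver libraries. The 2 ratios at 48 h, 0.121 and 0.130, lay below the 0.163 and 0.178 of controls. Macrophages are known to make Apoe, Apoc1 and Apoc2 as well as hepatocytes do. Their 14 markers passed as higher for 8 genes at 24 h and all 14 at 48 h, alongside the rise of Apoc2 and the fall of Apoe and Apoc1, and their part in these results was not tested.

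**Figure D2:**
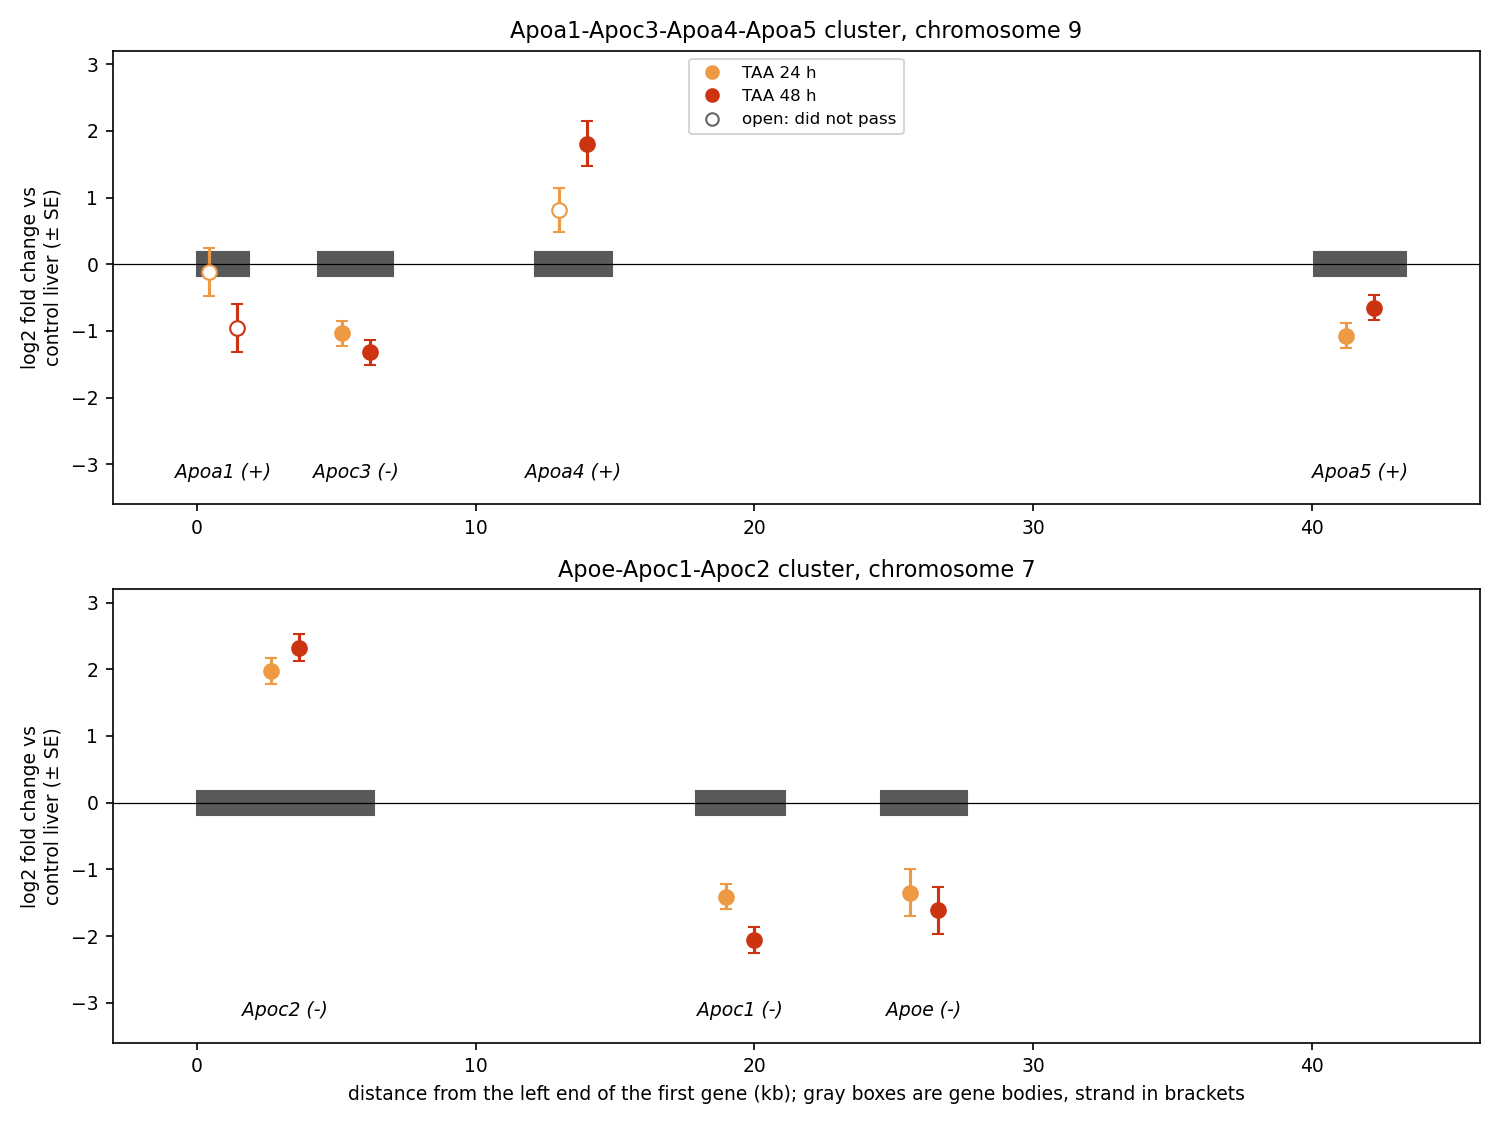
Log2 fold change ± SE against control liver at 24 h and 48 h after TAA, drawn above each gene of the chromosome 9 and chromosome 7 clusters at its distance in kb from the left end of the first gene. Open points did not pass. Apoc2 and Apoa4 lie above 0 at both times and the other genes below 0, but with library totals alone Apoa1 turned to 0.40 at 24 h and Apoa5 to 0.06 at 48 h.

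In the chromosome 9 cluster the 4 genes did not move as a block. Apoa4, an exchangeable apolipoprotein that follows triglyceride secretion, stood at 949 and 594 CPM in controls, 1001 and 1717 at 24 h, and 2901 and 2503 at 48 h. Both 48 h libraries lay above all other liver libraries. It rose by 1.81 ± 0.34 at 48 h (3.50-fold, adjusted p = 0.00528), which held in all 17 settings (1.46 to 2.55). At 24 h the change of 0.82 ± 0.33 did not pass (adjusted p = 0.0883), although with library totals alone it did (1.32, adjusted p = 0.0144). Between the times the change was 0.99 ± 0.33 (adjusted p = 0.116). An antisense gene, Gm10680, overlaps 34.8% of the Apoa4 exon length but held only 2 to 35 counts a library, at most 0.101% of those of Apoa4.

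Apoc3, an inhibitor of lipoprotein lipase which is read toward Apoa1, fell from 2005 and 1988 CPM to 905 and 1041 at 24 h and to 885 and 712 at 48 h. The changes were -1.04 ± 0.18 (adjusted p = 0.00566) and -1.32 ± 0.18 (adjusted p = 0.00167). No TAA library reached a control value. The 24 h call on Apoc3 was lost with both limma fits (-0.53, adjusted p = 0.0588 and 0.0533), and in the 12-library fit neither time passed (adjusted p = 0.195 and 0.0805). Apoa5, which promotes lipolysis of triglyceride-rich particles, stood at 2074 and 2468 CPM in controls, 1036 and 1126 at 24 h, and 1510 and 1388 at 48 h. It fell by 1.07 ± 0.18 at 24 h (adjusted p = 0.00508) and by 0.65 ± 0.18 at 48 h (adjusted p = 0.0244). Both 48 h libraries lay between those of 24 h and the controls, but the change of 0.42 ± 0.18 between the times did not pass (adjusted p = 0.19). The 48 h call on Apoa5 was lost without 48 h replicate 1 or 2 or control replicate 2 (adjusted p = 0.0803 to 0.124).

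Apoa1, the main protein of high-density lipoprotein, did not pass at either time. Its controls differed from each other, at 6645 and 10500 CPM. The 24 h libraries stood at 7973 and 7833, between the controls, and the 48 h libraries at 3699 and 5106, below both. The changes were -0.12 ± 0.36 (adjusted p = 0.815; 0.40 with library totals alone, not passed) and -0.96 ± 0.36 (adjusted p = 0.065). The 48 h change of Apoa1 passed with DESeq2 (-0.93, adjusted p = 0.00143), without a count filter (-0.94, adjusted p = 0.0469) and with edgeR's legacy dispersion (-0.96, adjusted p = 0.0201). Within libraries, Apoa4 per read of Apoa1 was 0.143 and 0.0566 in controls, 0.125 and 0.219 at 24 h, and 0.784 and 0.490 at 48 h. The 48 h ratios lay above the others.

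**Figure D3:**
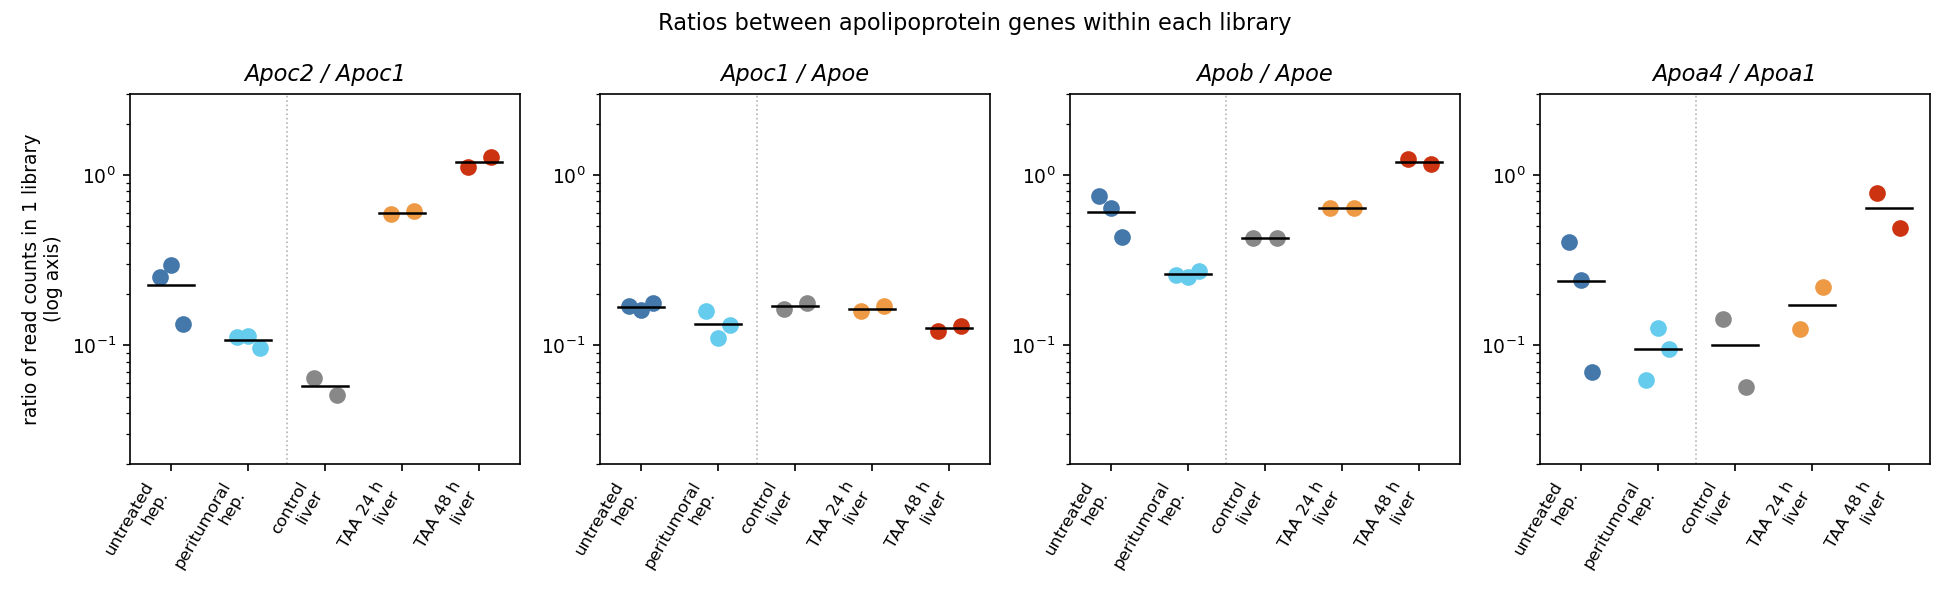
Ratio of read counts of 2 genes within 1 library (log axis); each point is 1 library, each black line the mean of its group. Apoc2 per Apoc1 ran from 0.0512 in a control liver to 1.27 at 48 h, while Apoc1 per Apoe stayed between 0.110 and 0.178 over all 12 libraries.

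Apoa2, the second protein of high-density lipoprotein, fell most of the 10 genes. It stood at 7724 and 6624 CPM in controls, 1631 and 1919 at 24 h, and 1066 and 941 at 48 h. The 3 groups did not overlap. The changes were -2.01 ± 0.24 at 24 h (4.04-fold lower, adjusted p = 0.00143) and -2.84 ± 0.25 at 48 h (7.15-fold lower, adjusted p = 0.000386), and the 48 h change held in all 17 settings (-2.99 to -2.13). The further change of -0.82 ± 0.23 between the times did not pass (adjusted p = 0.081).

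Apom, the carrier of sphingosine-1-phosphate in high-density lipoprotein, was the member that passed between the 2 times. It stood at 398 and 349 CPM in controls, 275 and 228 at 24 h, and 139.9 and 141 at 48 h. The 3 groups did not overlap. It fell by 0.57 ± 0.14 at 24 h (adjusted p = 0.0188), by 1.41 ± 0.14 at 48 h (adjusted p = 0.000573) and by 0.84 ± 0.14 from 24 h to 48 h (adjusted p = 0.0256). The 24 h call was lost without 24 h replicate 2 or control replicate 1 (adjusted p = 0.0848 and 0.0666) and with library totals alone (-0.06, adjusted p = 0.767). The call between the times was lost without either 24 h or either 48 h library (adjusted p = 0.0971 to 0.157). In that comparison 0 of the 10 genes were higher, 1 was lower and 9 did not pass, against 4.96% higher and 2.36% lower of all genes tested. At an unadjusted p under 0.05, 1 of the 10 was higher, DESeq2 called 3 higher and both limma fits 0. All 10 had no overlap between 24 h and 48 h, 4 higher (Apoa4, Apoa5, Apob and Apoc2) and 6 lower, where with 2 libraries a group 32.0% of all genes tested lay higher and 30.0% lower without overlap.

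Apob, the scaffold of very-low-density lipoprotein, did not pass at either time. It stood at 7861 and 7623 CPM in controls, 4294 and 4870 at 24 h, and 7235 and 6983 at 48 h. The 24 h libraries lay below all others, and the 48 h libraries came close to the controls. The change was -0.76 ± 0.28 at 24 h (adjusted p = 0.0697), -0.12 ± 0.28 at 48 h (adjusted p = 0.74) and 0.63 ± 0.28 between the times (adjusted p = 0.202). The 24 h change of Apob passed with DESeq2 (-0.75, adjusted p = 6.6e-07), without a count filter (-0.72, adjusted p = 0.0297) and with edgeR's legacy dispersion (-0.76, adjusted p = 0.00758). With library totals alone the 48 h change turned to 0.59 (adjusted p = 0.089). Within a library, reads of Apob per read of Apoe were 0.424 in each control, 0.639 and 0.641 at 24 h, and 1.23 and 1.16 at 48 h. These ratios did not overlap between groups.

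**Figure D4:**
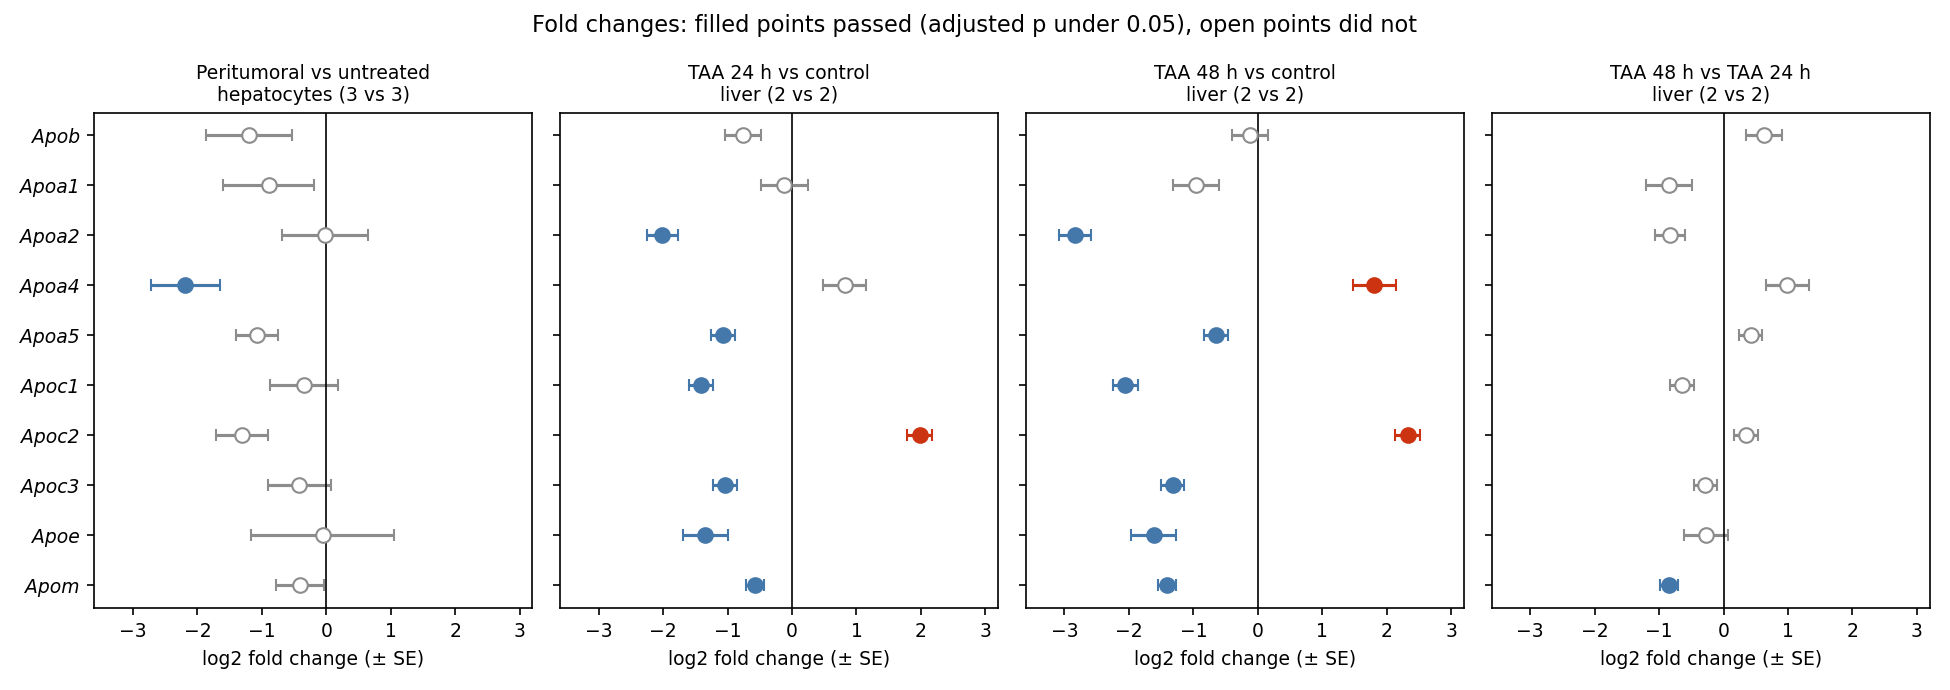
Log2 fold change ± SE of the 10 genes in the 4 comparisons; filled points passed at an adjusted p under 0.05 (red higher, blue lower) and open points did not. In the TAA comparisons only Apoc2 and, at 48 h, Apoa4 are filled to the right of 0, and in peritumoral hepatocytes only Apoa4 is filled, to the left; with library totals alone Apoa4 also passes at 24 h and Apoa5 at 48 h turns to 0.06.

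In peritumoral hepatocytes Apoa4 was the member that passed. Against untreated hepatocytes, 0 of the 10 genes were higher, 1 was lower (Apoa4) and 9 did not pass, where 19.0% of the 13442 genes tested were higher and 10.2% lower. The median of the 10 was -0.65, against -0.02 for all genes and -0.60 for the 9 hepatocyte markers, none of which passed (0 at an unadjusted p under 0.05 in either direction). By DESeq2 and both limma fits too, 0 of the 10 were higher, as were 0 at an unadjusted p under 0.05. Of the 10, 5 had no overlap between the groups, all lower (Apoa1, Apoa4, Apoa5, Apob and Apoc2), where 24.5% of all genes tested lay lower without overlap. Replicate 2, with its biliary markers, was the lowest of the 3 peritumoral libraries for 8 of the 10 genes, and replicate 1 the highest for 9. Without replicate 2 the changes of Apoa2, Apoc1 and Apoe were 0.37, 0.05 and 0.27, and none passed.

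Apoa4 stood at 2844, 1627 and 657 CPM in untreated and 330.0, 406 and 388 in peritumoral hepatocytes. The peritumoral libraries were close together, while the untreated ones spread over a wide range that stayed above them. It fell by 2.19 ± 0.54 (4.56-fold, adjusted p = 0.0258). The call was lost without untreated replicate 1 or 2 or any 1 of the 3 peritumoral libraries (adjusted p = 0.0583 to 0.0854), with changes of -2.24 to -1.60. With limma on log2(RPM + 0.5) and log2(RPM + 0.1) the call was lost too (-1.72 in each, adjusted p = 0.0947 and 0.07). A block for the replicate number in edgeR also ended it (-1.96, adjusted p = 0.0548). Apoa4 thus rose at 48 h after TAA, while its fall beside tumours was called in 9 of the 17 alternative settings. The difference between these changes was not tested.

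Apoc2 stood at 438, 446 and 375 CPM in untreated and 268, 83.6 and 157 in peritumoral hepatocytes. Its change of -1.31 ± 0.40 just missed the threshold (adjusted p = 0.0503), and without replicate 2 it was -0.95 (adjusted p = 0.0573). Apoa5 stood at 1575, 1116 and 1282 CPM against 849.5, 567 and 474, a change of -1.07 ± 0.33 that also missed (adjusted p = 0.0502). Apoa5 passed in 4 and Apoc2 in 6 of the 17 alternative settings, both of them with DESeq2 and without peritumoral replicate 1.

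Apob stood at 7658, 6001 and 6933 CPM in untreated and 3960, 1685 and 3338 in peritumoral hepatocytes. Every peritumoral library was below every untreated one, but the change of -1.20 ± 0.67 did not pass (adjusted p = 0.221). Apob per read of Apoe was 0.747, 0.642 and 0.433 in untreated and 0.260, 0.250 and 0.271 in peritumoral libraries, without overlap and, for the peritumoral libraries, within a narrow range that included replicate 2. Apoa1 stood at 7037, 6748 and 9491 CPM against 5271, 3216 and 4060 (-0.89 ± 0.71, adjusted p = 0.38).

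The other 5 genes overlapped between the groups. Apoe stood at 10249, 9347 and 16022 CPM in untreated and 15204, 6731 and 12340 in peritumoral hepatocytes, a change of -0.06 ± 1.11 (adjusted p = 0.976). Apoa2 was at -0.02 ± 0.67 (adjusted p = 0.983), Apoc1 at -0.35 ± 0.53, Apoc3 at -0.42 ± 0.49 and Apom at -0.41 ± 0.37. The 11 of 14 macrophage markers and all 10 endothelial markers that passed as higher in peritumoral hepatocytes moved alongside these values, and their part was not tested.

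Levels per kb of annotated exon put genes of different length on a common scale. The length is that of all annotated exons of a gene merged. A transcript may be shorter, and the order of genes rests on this length. On this scale Apoa2 was the most abundant of the 10 in control livers, at 13360 ± 1533 CPM per kb (scaled over all 12 libraries). Apoe followed at 8535 ± 233 and Apoa1 at 6927 ± 2161, whose ranges overlapped, then Apoc1 at 4174 ± 151, Apoc3 at 1968 ± 24.7, Apoa5 at 899.9 ± 105 and Apob at 556 ± 15.6. Apoa4 at 426 ± 141 overlapped with Apom at 368 ± 36.7, and Apoc2 was lowest at 219 ± 26.5. At 48 h the order was Apoa1 (3760 ± 845), Apoe (2941 ± 32.3), Apoa2 (1973 ± 176), Apoa4 (1572 ± 165), Apoc2 (1162 ± 178), Apoc1 (1060 ± 62.8), Apoc3 (832 ± 129), Apoa5 (607 ± 36.8), Apob (539 ± 14.2) and Apom (146 ± 0.726). Apoc2 had thus moved from the last place to the fifth, where it overlapped with Apoc1.

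Across the 5 groups, 7 of the 10 genes had their highest mean level in control livers (Apoa2, Apoa5, Apob, Apoc1, Apoc3, Apoe and Apom). The share of all genes that peak there was not computed. On RPM, Apoa5 and Apob were instead highest at 48 h and Apom in untreated hepatocytes. Apom in controls (347 to 399 CPM) also overlapped with untreated hepatocytes (299.6 to 392). Apoa4 and Apoc2 were highest at 48 h after TAA and lowest in peritumoral hepatocytes, where Apoc2 overlapped with control livers. Apoa4 at 48 h (2641 to 3066 CPM) overlapped with untreated hepatocytes (596 to 2786). Apoa1 was highest at 24 h, where it overlapped with controls. Apob at 7741 ± 218 CPM in controls, 7507 ± 197 at 48 h and 6537 ± 865 in untreated hepatocytes overlapped from each to the next. Hepatocyte and liver groups differ in stock and genotype, in preparation by the series design though not by the labels, and in Xist (196 to 456 RPM in all 6 livers, at most 0.183 in 5 of 6 hepatocyte libraries), which cannot be told apart here. Only Apoa2, Apoa4 and Apoc1 (3 of 10) kept their order of 5 means on RPM. Together the 10 genes took 3.74% and 3.86% of reads in controls, 2.77% and 3.02% at 24 h, 3.13% and 3.08% at 48 h, 3.46%, 3.10% and 3.56% in untreated and 3.51%, 2.04% and 2.68% in peritumoral hepatocytes.

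The gene whose level over the 12 libraries was most like that of each member, by Pearson r of log2(CPM + 0.5) among 12045 candidates, was Otc for Apoa2 (0.986), Hsd17b2 for Apoc1 (0.988), Acad8 for Apoe (0.984), Gc for Apoc3 (0.976) and Mpp4 for Apoa1 (0.967). For Apob it was Hadha (0.965), for Apom Prdx4 (0.961), for Apoa4 Actr2 (0.957), for Apoc2 Cpsf2 (0.946) and for Apoa5 Gtf3c4 (0.928). These are descriptions over libraries that share groups, stock and depth.

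Other apolipoprotein genes and a receptor for Apob (12 listed, 9 tested) showed 1 that rose and 5 that fell at 24 h, against 21.3% and 20.5% of all genes, and 2 that rose and 5 that fell at 48 h, against 25.0% and 23.9%. Their medians were -0.79 and -0.73. With library totals alone 3 fell at each time, as did 3 at 24 h without 24 h replicate 1 and 3 at 48 h without either 48 h library. Apoh, a phospholipid-binding plasma protein, fell from 3060 and 3120 CPM to 1073 and 1208 at 24 h (-1.44 ± 0.18, adjusted p = 0.00183). Apobr, a macrophage receptor for Apob, had 3 counts over both controls and 186 over both 48 h libraries, a ratio of 44.9 after scaling (95% interval by exact binomial counts 15.1 to 219.7, counting error only; adjusted p = 0.000585). In peritumoral hepatocytes 1 of 9 rose, where 19.0% of all genes did, and 0 fell (0 also at an unadjusted p under 0.05 and by DESeq2 and limma), with a median of -0.65. That was Apobr, at 2.43, 2.21 and 1.34 against 4.00, 6.97 and 8.61 CPM (1.70 ± 0.39, adjusted p = 0.0205), a call lost without any 1 untreated library or peritumoral replicate 3 (adjusted p = 0.0524 to 0.0739). Apof, an inhibitor of lipid transfer, was at -0.85 ± 0.45 there (adjusted p = 0.196).

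Of 19 genes of lipoprotein assembly and secretion, 9 fell beside tumours and 0 rose (0 also at an unadjusted p under 0.05; median -0.66), where 10.2% of all genes were lower; DESeq2 and both limma fits called 0 higher too. The count that fell was 0 without untreated replicate 1, 1 without untreated replicate 2, 3 without peritumoral replicate 2, 4 without peritumoral replicate 3 and 2 with library totals alone. Of the untreated libraries, replicates 1 and 2 were most alike, and the count rests on both. Mttp, which loads lipid onto Apob, stood at 608, 549.6 and 481 CPM in untreated and 259, 156 and 321 in peritumoral hepatocytes (-1.15 ± 0.30, adjusted p = 0.029), and leaving out untreated replicate 1, untreated replicate 2 or peritumoral replicate 1 ended that call (adjusted p = 0.0613 to 0.133). Mia2, which helps large cargo leave the endoplasmic reticulum, fell by 0.93 ± 0.16 (adjusted p = 0.0091, or 0.0619 without untreated replicate 1). Vmp1, needed for release of lipoproteins from that membrane, fell by 0.91 ± 0.16 (adjusted p = 0.00971, or 0.0661 and 0.0502 without untreated replicate 1 or 2).

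After TAA, 1 of the 19 assembly genes rose and 7 fell at 24 h, and 1 rose and 10 fell at 48 h, with medians of -0.17 and -0.48. Of all genes 21.3% rose and 20.5% fell at 24 h, and 25.0% rose and 23.9% fell at 48 h. This split rests on the scaling: with library totals alone 8 rose and 3 fell at 24 h, and 7 rose and 3 fell at 48 h. Without 48 h replicate 2, 6 fell at 48 h. Mttp did not pass: it stood at 445 and 509 CPM in controls, 424 and 423 at 24 h and 451 and 407 at 48 h (-0.17 ± 0.13 and -0.15 ± 0.13; with library totals alone the latter turned to 0.56, adjusted p = 0.0115). Cideb, which helps load lipid onto very-low-density lipoprotein, fell by 1.32 ± 0.13 at 24 h (adjusted p = 0.000755) and by 1.07 ± 0.12 at 48 h (adjusted p = 0.000925). Sar1b, the GTPase of secretory coats that carry lipoproteins, fell by 1.36 ± 0.15 at 24 h (adjusted p = 0.00115) and Dgat2, which makes triglyceride, by 1.39 ± 0.14 at 48 h (adjusted p = 0.000532). Between the times, 1 rose (Sort1, 1.64 ± 0.36, adjusted p = 0.0465) and 1 fell (Acat2, an acetyl-CoA acetyltransferase, -1.08 ± 0.18, adjusted p = 0.0264). Acat2 is counted among the 19 in every comparison, but that enzyme is not one of lipoprotein assembly itself.

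Enzymes that act on lipoproteins in plasma, and their regulators (13 genes), showed 2 higher and 8 lower at 24 h, against 21.3% and 20.5% of all genes, and 2 higher and 9 lower at 48 h, against 25.0% and 23.9%. Their medians were -0.91 and -0.86. With library totals alone 6 fell at each time, and 5 fell at 24 h without 24 h replicate 1. Lipc, hepatic lipase, went from 352 ± 27.9 CPM to 40.3 ± 2.24 and 26.1 ± 6.82 (-3.13 ± 0.20, adjusted p = 0.000369, and -3.76 ± 0.21, adjusted p = 0.000169). Pon1, an esterase of high-density lipoprotein, went from 1205 ± 14.4 to 213 ± 9.94 and 112 ± 10.7 CPM (-2.50 ± 0.14 and -3.42 ± 0.15, adjusted p = 0.000312 and 0.000113). Lpl, the lipase that Apoc2 activates, stood at 71.2 and 52.2 CPM at 24 h and 281 and 229 at 48 h (2.05 ± 0.23, adjusted p = 0.0133). Its controls, looked up after its values were seen, were at 8.56 and 12.5 CPM. Between the times 8 of 14 macrophage markers were also higher, and their part in the rise of Lpl was not tested. In peritumoral hepatocytes 2 of the 13 rose, where 19.0% of all genes did, and 0 fell (2 at an unadjusted p under 0.05; 0 by DESeq2 and limma): Pltp, a phospholipid transfer protein (3.10 ± 0.48, adjusted p = 0.00665), and Gpihbp1, the endothelial anchor of Lpl (2.47 ± 0.20, adjusted p = 0.00267), beside the rise of all 10 endothelial markers, whose part was not tested.

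Receptors and cholesterol exporters (14 genes, of which 13 were tested in hepatocytes) showed 2 that rose and 3 that fell beside tumours, against 19.0% and 10.2% of all genes. After TAA 2 rose and 3 fell at 24 h, against 21.3% and 20.5% of all genes, and 2 rose and 5 fell at 48 h, against 25.0% and 23.9%. The medians were -0.46, -0.23 and -0.25. With library totals alone 4 rose at each time after TAA, and 1 and 3 fell. Without 24 h replicate 1, 1 fell at 24 h. Abcg1, which exports cholesterol to high-density lipoprotein, rose by 2.0 ± 0.31 beside tumours (adjusted p = 0.00636) and by 3.88 ± 0.39 at 48 h (adjusted p = 0.000536). In these comparisons 11 and 14 of the 14 macrophage markers were higher too, and their part was not tested. Abcg5 fell by 1.09 ± 0.22 beside tumours (adjusted p = 0.0146), and its partner in sterol export to bile, Abcg8, by 1.18 ± 0.14 at 24 h (adjusted p = 0.0016) and by 2.68 ± 0.15 at 48 h (adjusted p = 0.000169). Lrp8, a receptor for Apoe, had 0 counts in both controls and 49 over the 24 h libraries, at least 11.4-fold higher against a floor of 3 counts over the control group; with it set at that bound the medians were the same -0.23 and -0.25. Between the times, 1 rose and 3 fell, among them Abcg8 (-1.50 ± 0.15, adjusted p = 0.0114) and Lsr, a receptor for triglyceride-rich lipoproteins (-1.0 ± 0.15, adjusted p = 0.023).

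The factors that edit the Apob transcript, which changes the length of the protein made, were measured by level only, since the count table holds no edited bases. Apobec1, the enzyme, stood at 16.2 ± 1.90 CPM in controls, 17.3 ± 1.46 at 24 h and 48.2 ± 0.309 at 48 h. It rose by 1.57 ± 0.15 at 48 h (adjusted p = 0.000459) and was at 0.09 ± 0.14 at 24 h (adjusted p = 0.638). All 14 macrophage markers were also higher at 48 h, and the part of macrophages in the rise of Apobec1 was not tested. Its partners fell: A1cf by 1.16 ± 0.25 and 1.22 ± 0.25 (adjusted p = 0.0112 and 0.00711), and Rbm47 by 0.51 ± 0.14 and 0.59 ± 0.14 (adjusted p = 0.024 and 0.0118). The 24 h calls were lost without 24 h replicate 1 (A1cf, adjusted p = 0.0781) and without 24 h replicate 1 or control replicate 1 (Rbm47, adjusted p = 0.139 and 0.0784), and that of Rbm47 at 48 h without either 48 h library (adjusted p = 0.0758 and 0.0527); with library totals alone Rbm47 turned to 0.12 at 48 h. From 24 h to 48 h Apobec1 rose by 1.48 ± 0.14 (adjusted p = 0.0114), while A1cf was at -0.06 ± 0.24 (adjusted p = 0.905) and Rbm47 at -0.08 ± 0.14 (adjusted p = 0.765). In peritumoral hepatocytes A1cf fell from 182 ± 30.8 to 82.4 ± 29.8 CPM (-1.14 ± 0.30, adjusted p = 0.0308, lost without any 1 untreated library or peritumoral replicate 1, adjusted p = 0.0621 to 0.104). Apobec1 (0.25 ± 0.18, adjusted p = 0.336) and Rbm47 (-0.03 ± 0.20, adjusted p = 0.936) did not pass there.

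Of 22 transcription factors known to act on apolipoprotein genes, 0 rose in any comparison by edgeR, also at an unadjusted p under 0.05, or by DESeq2; 3 fell beside tumours, 14 at 24 h, 15 at 48 h and 2 between the times (medians -0.51, -0.66, -0.84 and -0.12). Of all genes 10.2%, 20.5%, 23.9% and 2.36% fell in the same order. With library totals alone 2 rose and 4 fell at 24 h, and 3 rose and 5 fell at 48 h; both limma fits, which use totals too, called 2 higher at each time. Without 24 h replicate 1, 7 fell at 24 h, and beside tumours 0 to 1 fell without any 1 untreated library or peritumoral replicate 3. Creb3l3, which drives Apoa4, Apoc2 and Apoa5 in fasting liver, stood at 479, 440.2 and 511 CPM in untreated and 213, 97.0 and 186 in peritumoral hepatocytes. It fell by 1.53 ± 0.31 (adjusted p = 0.0143, or 0.0637 without untreated replicate 1). Nr5a2, a nuclear receptor of bile acid and cholesterol genes, fell there by 0.52 ± 0.14 (adjusted p = 0.0365), a call lost in 5 of 6 fits without 1 library. After TAA, Cebpa, a factor of the mature hepatocyte, fell by 1.10 ± 0.11 and 1.48 ± 0.11 (adjusted p = 0.000875 and 0.000293). In livers Creb3l3 stood at 281 and 429 CPM in controls, 171 and 181 at 24 h and 195 and 163 at 48 h. Apoc2 rose at both times and Apoa4 by 48 h, and any part of Creb3l3 was not tested in any group. Mlxipl, which responds to sugar, fell by 2.09 ± 0.18 at 24 h (adjusted p = 0.000623), and Nr0b2, a repressor of bile acid synthesis, by 2.11 ± 0.16 at 48 h (adjusted p = 0.000313). Between the times Nr0b2 fell by 0.82 ± 0.16 (adjusted p = 0.0354) and Srebf2, the regulator of sterol synthesis, by 0.67 ± 0.15 (adjusted p = 0.0466). Hnf4a, given beside its motif and chosen after its values were seen, was at -0.61 ± 0.23 at 24 h (adjusted p = 0.0784) and at -0.86 ± 0.24 at 48 h (adjusted p = 0.0229). Each call between 24 h and 48 h on a gene named from these lists was lost in 2 to 6 of the 6 fits that left out 1 library. Clu, a secreted chaperone found in lipoproteins, was at 1.23 ± 0.30 (adjusted p = 0.0612) and Apobr at 1.69 ± 0.39 (adjusted p = 0.0487) in that comparison.

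**Figure D5:**
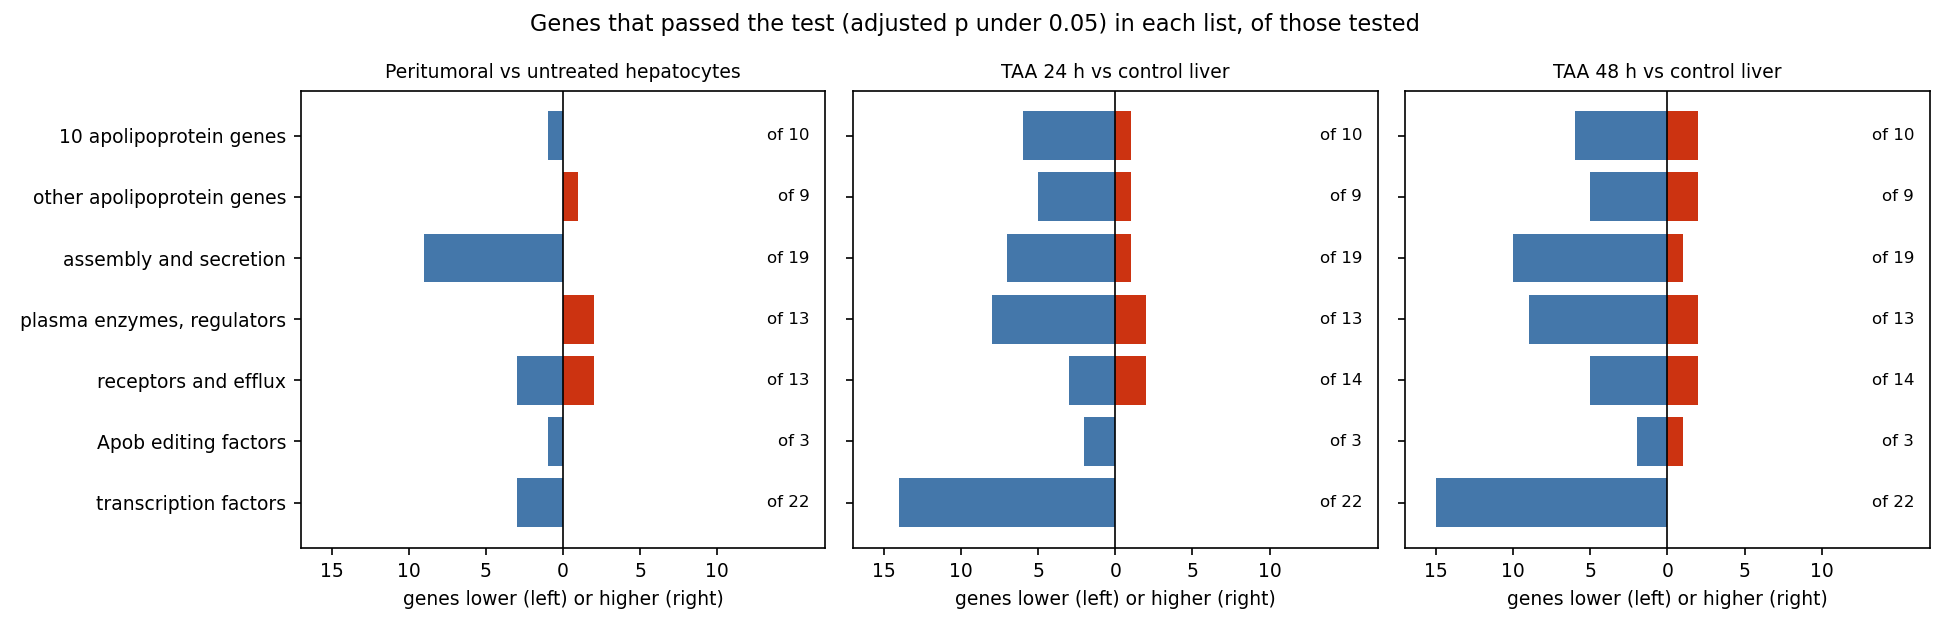
Number of genes that passed at an adjusted p under 0.05, lower to the left and higher to the right of 0, in the 10 apolipoprotein genes and 6 related lists, with the number tested at the right of each bar. At 48 h after TAA 6 apolipoprotein genes were lower and 2 higher, and 15 of 22 transcription factors were lower and none higher; with library totals alone 5 apolipoprotein genes and 5 transcription factors were lower, and 3 transcription factors were higher.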

How the data were processed

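Poly(A) RNA of 12 mouse libraries was prepared with a stranded kit, per the labels' protocols. Raw counts, as the authors deposited them for each gene, entered every main test. A table of RPM (reads scaled to the library's total) for 17311 genes was also deposited; 100.0% of the deposited RPM values gave whole counts within 0.01 and equalled the count table, and the edgeR test on them called 3930, 5644, 6598 and 989 genes in the 4 comparisons, as many as on the deposited counts. The tools and builds named per the submitters' processing notes are STAR, DESeq2, mm10 and GRCm38. Annotation and strand setting of the counting: not given in the sources used here. Genes that overlap on either strand may therefore share reads.

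Groups and replicate numbers came from sample titles. The 6 hepatocyte libraries (13442 genes tested, biological coefficient of variation 0.358) and the 6 liver libraries (13497 genes, 0.188) were fitted apart with edgeR 4.0.16 under R 4.3.3. Genes passed filterByExpr (minimum count 10, total 15), factors were TMM, and group was the only term of the two-sided quasi-likelihood test. P-values were adjusted by Benjamini-Hochberg over all genes tested, with a threshold of 0.05. The procedure was tested on simulated counts. SE is the absolute log2 fold change divided by the root of F. TMM factors ran from 0.750 to 1.31, and 3 counts correspond to 0.162 to 0.311 RPM in a library (counting error only). No pair of replicates looked like 1 library deposited again (chi-square per degree of freedom 16.9 to 232). In untreated hepatocytes this value was 16.9 between replicates 1 and 2, and 137 and 133 between each of them and replicate 3.

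Of the IDs, 40254 (97.9%) were found in GENCODE M21 on GRCm38, which gave positions and exon lengths, and 153 of 154 listed genes were matched (Tf was not). Promoter sequences are from RefSeq (GRCm38.p6). Alternatives were RLE factors, library totals alone, DESeq2 1.42.0, other count filters, a block for the replicate number, limma 3.58.1 on logged RPM (log2, with 0.5 or 0.1 added), 1 fit of all 12 libraries, and each library left out; legacy dispersion and counts recovered from RPM were added after seeing the data. Leaving out a library from a group of 2 assumes that the lone library varies like the others.

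The 10 genes, the gene lists and the tests were chosen with earlier results of these data known. Named beside the 10 genes are the 2 tested genes with the smallest p of each pathway list in each comparison, Mttp, the 3 Apob editing factors, and for each of the 10 the gene with the highest correlation (genes with only a provisional or pseudogene name left aside). A few of the genes and motifs covered by these rules are not reported here.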

Additional observations from a re-analysis of the deposited data

Results flagged for a closer look

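The change of Apom after TAA differed between the times by a direct test: its level at 48 h was lower than at 24 h by a log2 change of -0.84 (edgeR's quasi-likelihood test, adjusted p = 0.0256), lower in 2 of 2 libraries. Without any 1 of the 4 TAA libraries the adjusted p was 0.0971 to 0.157. No other of the 10 genes passed this test between the times.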

How the results depend on the processing

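Each of 17 alternatives was run for every comparison. Counts recovered from RPM are among the 17, but they equal the deposited counts and so add no separate check. The calls on Apoc2 at 24 h and on Apoa2, Apoa4, Apoc1, Apoc2 and Apom at 48 h were kept in all 17. On library totals alone, limma on log2(RPM + 0.5) and limma on log2(RPM + 0.1), 3 changes at 48 h turned: Apoa5 to 0.06, 0.07 and 0.07, Rbm47 to 0.12 in each, and Mttp to 0.56 in each; all 3 leave out the TMM factors. At 24 h, 2 of the 10 genes were higher with library totals alone, DESeq2 and both limma fits (1 in edgeR with TMM), and 2, 3 and 0 were lower with the 2 limma fits in that order and with all 12 libraries in 1 fit (6 in edgeR); the last also gave 3 lower at 48 h (6) and 3255 genes called at 24 h (5644). In peritumoral hepatocytes 5 were lower with DESeq2, 3 with a summed count of at least 50, 0 with limma on log2(RPM + 0.5) and 3 with all 12 libraries (1), and 2538 and 5941 genes were called by the last 2 of these (3930). Between the times, DESeq2 called 1519 genes, no filter 654, limma on log2(RPM + 0.5) 1535 and the 12-library fit 131 (989); of the 10, DESeq2 put 3 higher and 4 lower, legacy dispersion 1 and 2, and limma on log2(RPM + 0.1) and the 12-library fit 0 lower. Apart from the turned signs, the cause was not tested. Leaving out 1 library gave 2821 to 4842 genes at 24 h, 0 to 1344 between the times and 1359 to 3827 in peritumoral hepatocytes; of the 10, 4 to 6 were lower at 24 h, 0 to 1 between the times and 0 to 2 in peritumoral hepatocytes. Without Apoe, the mean share of reads of the other 9 genes was 2.42% in controls, 2.13% at 24 h, 2.37% at 48 h, 2.30% in untreated and 1.54% in peritumoral hepatocytes. With 1 library left out, the share of all 10 was 3.74 to 3.86%, 2.77 to 3.02%, 3.08 to 3.13%, 3.28 to 3.51% and 2.36 to 3.09% in that order. On RPM, 3 genes kept their order of group means.

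No pairing of libraries by replicate number was seen, but the check cannot exclude it. Same-numbered hepatocyte libraries deviated from their group means with r of -0.22, 0.17 and 0.1, and other pairs with -0.24 to 0.24. Same-numbered livers gave 0.02 to 0.03. With 2 liver libraries a group, their deviations mirror each other, so pairs of unlike number give the same r with the opposite sign. With the number as a replicate block, Apoa4 was no longer called in peritumoral hepatocytes (-1.96, adjusted p = 0.0548) and Apoc2 was (-1.46); among other named genes, calls on Apobr and Nr5a2 there and on Apobr, Sort1 and Srebf2 between the times were lost.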
